A study of Homo sapiens and Mus musculus with 7 samples.

Results

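The JNK kinase cascade was followed here through 10 genes: the kinases MAPK8, MAPK9 and MAPK10 (JNK1, JNK2 and JNK3), the MAP2K genes MAP2K4 and MAP2K7 that phosphorylate them, the upstream MAP3K genes MAP3K1, MAP3K5 and MAP3K7, and the phosphatase genes DUSP10 and DUSP16. Members were the probe sets annotated to 1 of these symbols alone, with mouse symbols matched ignoring case. On the human arrays 27 of 54613 probe sets met this rule and stood for 9 of 19775 genes, and on the mouse arrays 27 of 45037 probe sets stood for 9 of 18193 genes. MAP2K7 was not analysed here. Total RNA was hybridised to 7 Affymetrix arrays, 1 per group. In HeyA8, a human ovarian cancer cell line, there were arrays of cells with stable FAS knockdown by the hairpin shRNA4, of cells with stable FAS knockdown by shRNA6, and of the PLKO control, named after a lentiviral vector that carries such hairpins. In HepG2, a human liver cancer cell line, there were arrays of cells with stable knockdown by shRNA6 and of the PLKO control. The labels also call the hairpin cells knock-outs, and they do not give how many clones each line held. Mouse liver came from a Fas knock-out and a wild-type male of strain C57/BL6, both aged 2 months, and the labels do not say whether animals were pooled. The study ties Fas to JNK and to the transcription factor Jun, and the question here was whether transcripts of the cascade itself differed where Fas was reduced.

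Fas (CD95) is a cell surface receptor of the tumour necrosis factor receptor family that can start apoptosis and can also signal through kinases. The JNK cascade is a relay of phosphorylation. MAP3K enzymes, activated by stress and by receptors, phosphorylate MKK4 and MKK7, which phosphorylate the JNK kinases on a threonine and a tyrosine, and JNK in turn phosphorylates the AP-1 subunit Jun. Dual-specificity phosphatases remove these phosphates and end the signal. Activity of the cascade is set mainly on the proteins, which expression arrays do not measure.

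The values are MAS5 signals, in arbitrary units on a linear scale. Array medians lay between 57.8 and 63.4 on the human arrays and at 75.2 and 79.9 on the mouse arrays. All 6 hepatocyte markers were above the array median on both HepG2 arrays, with summed signals of 94356 and 92054, against sums of 151 to 249 on the HeyA8 arrays. Of 3 ovarian tumour markers PAX8 and WT1 were above the median on all 5 arrays and MUC16 on none, at 4.18 and 6.60 on the HepG2 arrays, against 2.99 to 4.66 on the HeyA8 arrays. The 3 markers summed to 812 and 815 on the HepG2 arrays, against 3693 to 4085 on the HeyA8 arrays. Albumin (Alb) was at 30452 in Fas KO liver and 29417 in WT liver, and all 6 mouse hepatocyte markers were above the median on both arrays. FAS gave signals of 1184 with shRNA4 and 856 with shRNA6 in HeyA8, against 2104 with PLKO, and 631 with shRNA6 in HepG2, against 1087 with PLKO. Mouse Fas was at 169 in Fas KO liver and 560 in WT liver, on 1 probe set, and where that set lies relative to the deleted sequence was not analysed here, so it may not check the label.

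No member of the cascade reached a 2-fold difference from its own control in the 4 comparisons on the scale used here, log2 of signal plus a constant c, the 25th percentile of the table (12.6 in human, 20.5 in mouse). The constant understates the differences of dim genes. Map3k1 in Fas KO liver was at 49.5% of its WT signal before it was added, and with a constant of 1 it was past 2-fold, at -1.01. Each gene is represented by 1 probe set, the one most intense on average, and was kept where at least 1 of the compared arrays lay above its own median. With shRNA4 in HeyA8 0 of 9 kept members were at least 2-fold higher or lower, beside 4.76% of 12175 genes. With shRNA6 in HeyA8 it was 0 of 9 beside 4.22% of 12152 genes, with shRNA6 in HepG2 0 of 8 beside 5.22% of 12167, and in Fas KO liver 0 of 8 beside 4.34% of 12047. With so few members, shares of this size would correspond to less than 1 gene, so a count of 0 does not set the cascade apart. Median ratios of the kept members were -0.24 with shRNA4 and -0.18 with shRNA6 in HeyA8, -0.0045 in HepG2 and -0.15 in Fas KO liver, beside medians of all kept genes of 0.03, 0.01, -0.01 and -0.02. At 1.5-fold or more, 2 of 9, 2 of 9, 0 of 8 and 2 of 8 members differed, all of them lower. Of all kept genes 12.9%, 10.9%, 12.6% and 12.5% differed that much in either direction, and 6.73%, 6.23%, 6.16% and 7.63% were lower. With 1 array per group these single comparisons have no replicate check, and precision is limited by the number of arrays. Both HeyA8 comparisons share 1 control array, so a member's values there are not independent.

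**Figure D1:**
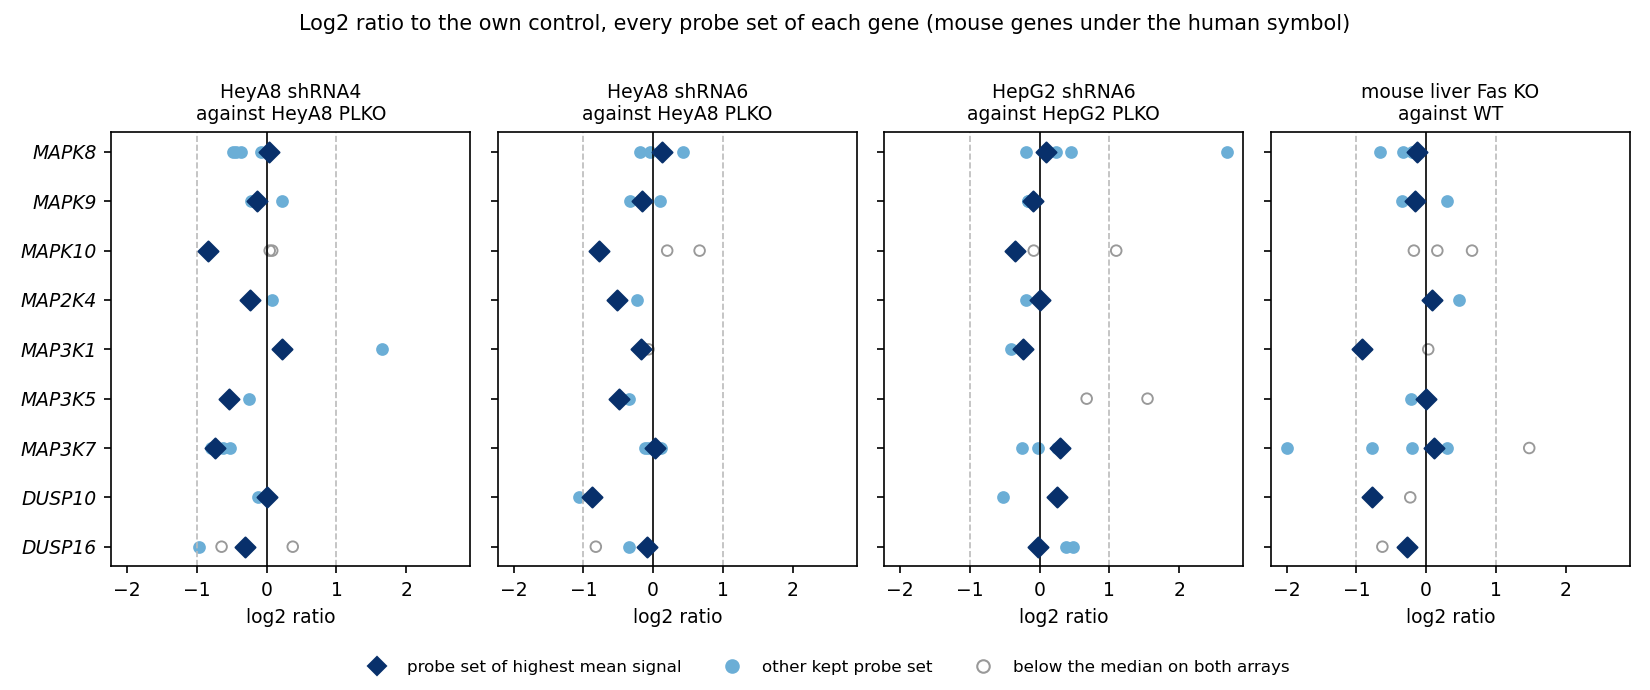
Log2 ratio of each probe set to its own control, 1 row per gene, in the 4 comparisons. Diamonds mark the probe set most intense on average where it was kept, filled circles other kept probe sets, open circles probe sets below the median on both arrays, and dashed lines a 2-fold difference. All diamonds lie between -0.91 and 0.29.

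Of the JNK kinases themselves, MAPK8 and MAPK9 were close to their controls in the human cells on their most intense probe sets. MAPK8, which encodes the broadly expressed JNK1, gave signals of 1353 with shRNA4 and 1448 with shRNA6 in HeyA8, against 1325 with PLKO. In HepG2 it was at 986 with shRNA6 and 924 with PLKO. These are log2 ratios of 0.03, 0.13 and 0.09. The gene is also read by 4 other human probe sets, which lay between -0.48 and -0.08 with shRNA4 and between -0.19 and 0.43 with shRNA6 in HeyA8. In HepG2 a set of the _x_at kind, whose probes can also bind other transcripts, was at 164 with shRNA6 and 14.96 with PLKO, a ratio of 2.68, while the remaining sets lay between -0.19 and 0.44. MAPK9, which encodes JNK2, was at 1998 with shRNA4 and 1970 with shRNA6 in HeyA8, against 2197 with PLKO. In HepG2 it was at 2213 with shRNA6 and 2354 with PLKO. Its ratios were -0.14, -0.16 and -0.09. MAPK10, which encodes JNK3, a form found mainly in brain and heart, was dim, at 56.9 with shRNA4 and 59.6 with shRNA6 in HeyA8, against 111 with PLKO, and at 64.0 with shRNA6 and 85.0 with PLKO in HepG2. Every hairpin array was thus below its control, with ratios of -0.83, -0.78 and -0.35. The comparison with shRNA4 kept MAPK10 through the control array alone, and its other probe sets lay below the array median in every human comparison, with ratios from -0.08 to 1.10.

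MAP2K4, the kinase MKK4 that activates both JNK and p38, gave 512 with shRNA4 and 418 with shRNA6 in HeyA8, against 606 with PLKO. In HepG2 it was at 1022 with shRNA6 and 1015 with PLKO. The HeyA8 ratios were -0.24 and -0.52 and the HepG2 ratio was 0.01. Its other probe set gave 0.07, -0.23 and -0.20, so the sets shared a sign in HeyA8 only with shRNA6.

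Among the upstream kinases, MAP3K7 was lower with one hairpin in HeyA8 and near its control with the other, a difference that was not tested. MAP3K7 encodes TAK1, which couples cytokine receptors to JNK and to NF-kB. Its most intense probe set was at 1530 with shRNA4 and 2625 with shRNA6, against 2570 with PLKO, ratios of -0.74 and 0.03. All 4 of its probe sets were lower with shRNA4, between -0.80 and -0.53, and lay between -0.12 and 0.12 with shRNA6. In HepG2, with shRNA6, they lay between -0.25 and 0.29. The probe sets of 1 gene share the array and its RNA and are not replicates.

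MAP3K5, which encodes the stress-activated kinase ASK1, was lower with both hairpins in HeyA8, at 1010 with shRNA4 and 1044 with shRNA6, against 1473 with PLKO. Those ratios were -0.54 and -0.49, and the other probe set gave -0.26 and -0.34. In HepG2 its signals of 15.6 with shRNA6 and 5.12 with PLKO were below the array medians and it was not kept there. MAP3K1, which encodes MEKK1, a kinase that is also a ubiquitin ligase, was at 1123 with shRNA4 and 848 with shRNA6 in HeyA8, against 960 with PLKO. In HepG2 it was at 2512 with shRNA6 and 2953 with PLKO. Its ratios were 0.22, -0.18 and -0.23, with no common sign. A dim second probe set of MAP3K1 was at 66.0 with shRNA4 against 12.5 with PLKO in HeyA8, a ratio of 1.65, and at 11.3 with shRNA6.

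The phosphatase DUSP10 (MKP5), which acts on JNK and p38, had the lowest ratio of any member with shRNA6 in HeyA8. It was at 590 with shRNA4 and 316 with shRNA6, against 589 with PLKO, ratios of 0.0023 and -0.87. The other probe set followed the same order, at 304 with shRNA4 and 154 with shRNA6, against 333 with PLKO, and its ratio of -1.06 with shRNA6 was past 2-fold. In HepG2, with the same hairpin, the sets were at 220 and 74.1 with shRNA6, against 183 and 112 with PLKO, ratios of 0.25 and -0.53. For DUSP10 the knockdown effect in HepG2 minus that in HeyA8 was fitted as 0.69 ± 0.60 (SE), adjusted p 0.999 by limma. DUSP16 (MKP7), a phosphatase of JNK, was at 217 with shRNA4 and 255 with shRNA6 in HeyA8, against 271 with PLKO. In HepG2 it was at 1632 with shRNA6 and 1653 with PLKO. Its ratios were -0.31, -0.09 and -0.02, and a second kept probe set gave -0.96 with shRNA4. Counted by probe set, 1 of 23 kept member sets was past 2-fold with shRNA4, 1 of 22 with shRNA6 and 1 of 23 in HepG2, beside 5.26%, 4.48% and 5.8% of all kept probe sets. The set past 2-fold with shRNA4 (MAP3K1) and the one in HepG2 (MAPK8) were kept through the hairpin array alone, with control signals below the median.

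For a test, the 5 human arrays were fitted together by limma with the cell line and the knockdown as terms. For the effect of FAS knockdown common to both lines, 0 of 9 members had an adjusted p below 0.05, beside 0% of the 13936 genes tested. At an unadjusted p below 0.05 there were 568 genes and 0 members. The intervals bound what these arrays could hold. For MAPK8 the common log2 effect was 0.08 ± 0.11 (SE, 5 arrays) with a 95% interval from -0.18 to 0.35, and MAPK9 one of -0.12 ± 0.10 (SE) with an interval from -0.35 to 0.11. For both, a common change of 1.5-fold thus lay outside the interval of the most intense probe set. The other MAPK8 probe sets, whose ratios ran from -0.48 with shRNA4 in HeyA8 to 2.68 in HepG2, were not part of that fit. MAPK10 had the largest effect, -0.61 ± 0.34 (SE), with an interval from -1.41 to 0.18 and an adjusted p of 0.991 by limma. It was lower in 3 of 3 comparisons, of which the 2 in HeyA8 share 1 control array. With the mean of its probe sets in place of the most intense one the MAPK10 effect was 0.035, so its direction rests on 1 probe set. The other members lay between -0.21 (MAP2K4) and -0.01 (MAP3K5). The MAP3K5 value joins ratios of -0.54 and -0.49 in HeyA8 with 0.67 in HepG2, where both signals were below the array medians. A 1.5-fold decrease was not excluded by the intervals of DUSP10 (-0.82 to 0.54), MAP3K5 (-0.68 to 0.67), MAP3K7 (-0.63 to 0.47) and MAP2K4 (-0.60 to 0.17). For MAP3K5 a 1.5-fold increase was not excluded either. FAS itself, at -0.93 ± 0.17 (SE) and lower in 3 of 3 comparisons, had the same adjusted p of 0.991, so the target of the hairpins did not pass either. The p-values rest on 2 residual degrees of freedom and on a variance prior estimated from all genes. Those degrees of freedom come from the difference between hairpins in HeyA8 and from the difference of the knockdown effect between cell lines. The scatter behind these p-values thus holds differences between hairpins and between cell lines, and is not that of repeats of 1 condition. No label says that the arrays stand for separate cultures, so a technical part of that scatter cannot be told apart.

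Whether the knockdown effect differed by cell line was tested with an interaction term on 1 residual degree of freedom. By limma 0 of 9 members passed, beside 0% of 13936 genes, with 613 genes and 1 member at an unadjusted p below 0.05. MAP3K5 was the member with the largest difference, 1.19 ± 0.41 (SE, HepG2 minus HeyA8), with an unadjusted p of 0.0289 and an adjusted p of 0.999 by limma. That value sets HepG2 signals below the array median beside HeyA8 signals of 1010 to 1473. JUN, the main substrate of the cascade, was at 539 with shRNA6 and 666 with PLKO in HepG2, and at 7308 with shRNA4 and 6023 with shRNA6 in HeyA8, against 4881 with PLKO. The other JUN probe sets ran from 0.19 to 0.34 with shRNA4 and from -0.07 to 0.37 with shRNA6 in HeyA8. In HepG2 they ran from -0.31 to -0.05. On the set given first, JUN had ratios of 0.58 with shRNA4 and 0.30 with shRNA6 in HeyA8, and -0.30 in HepG2. Its knockdown effect in HepG2 minus that in HeyA8 was -0.74 ± 0.26 (SE), adjusted p 0.999 by limma.

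**Figure D2:**
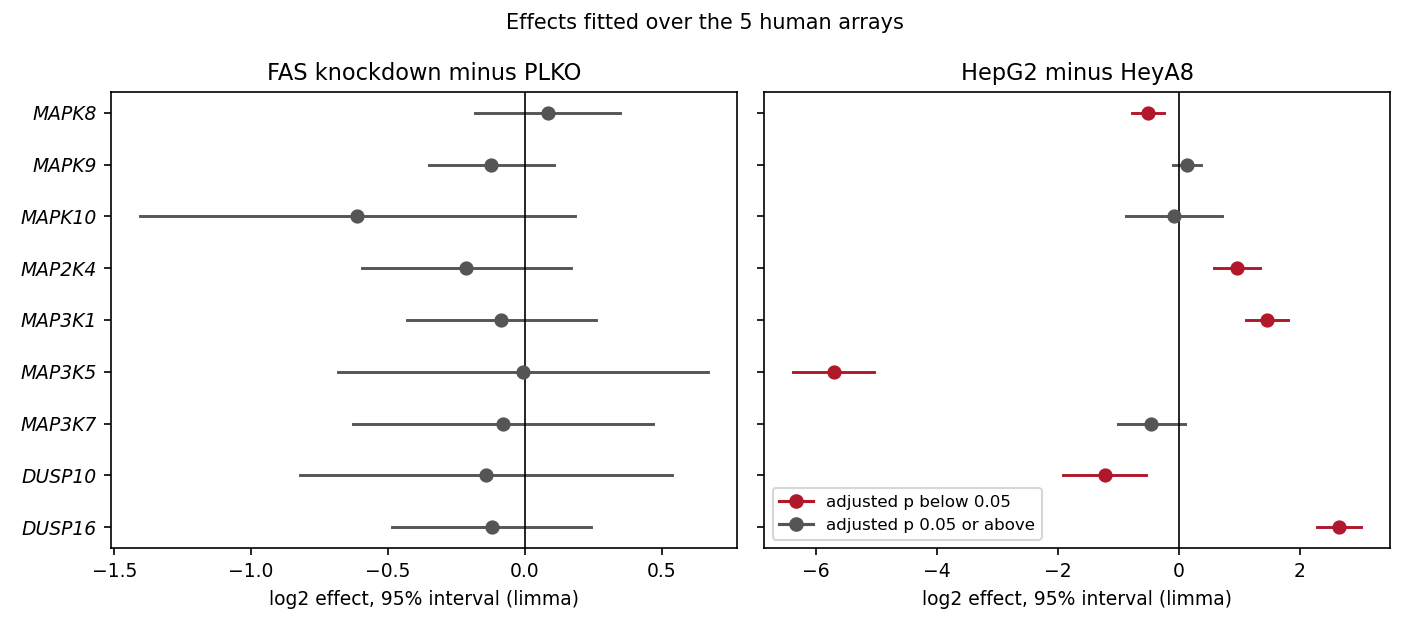
Log2 effects fitted by limma over the 5 human arrays for the 9 members, with 95% intervals, for FAS knockdown minus PLKO (left) and for HepG2 minus HeyA8 (right). The horizontal scales differ. All 9 knockdown intervals include 0, while 6 of 9 cell line intervals belong to members with an adjusted p below 0.05.

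In mouse liver the lower members were Map3k1 and Dusp10. Map3k1 was at 133 in Fas KO liver and 268 in WT liver, a log2 ratio of -0.91. Its other probe set was near 10 on both arrays. Dusp10 was at 79.5 in Fas KO liver and 151 in WT liver, a ratio of -0.77, with the Fas KO signal close to its array's median. Another Dusp10 probe set, at 28.9 in Fas KO liver and 37.3 in WT liver, was below the median on both arrays. Mapk8 was at 768 in Fas KO liver and 847 in WT liver, and all 5 of its probe sets were lower, from -0.66 to -0.14. Mapk9 was at 1098 in Fas KO liver and 1231 in WT liver, with its 3 sets between -0.35 and 0.31. Mapk10 was below the median on both arrays with every probe set and was not kept. Map2k4 was at 803 in Fas KO liver and 759 in WT liver, a ratio of 0.08. Map3k5 was at 1379 in Fas KO liver and 1383 in WT liver, a ratio of -0.0037. Dusp16 was at 1781 in Fas KO liver and 2166 in WT liver, a ratio of -0.28. Map3k7 could not be given 1 value, because its 5 kept probe sets ran from -1.99 to 0.30. The set most intense on average was at 373 in Fas KO liver and 344 in WT liver, a ratio of 0.11, and the lowest ratio came from a set at 15.03 in Fas KO liver and 121 in WT liver. By probe set 15 of 20 kept sets were below 0, with a median of -0.21 beside -0.02 for all kept mouse probe sets. The share of all kept sets below 0 was not counted, and sets of 1 gene are not replicates. Past 2-fold was 1 of the 20, beside 4.87% of all kept mouse probe sets. It was the Map3k7 set at 15.03 in Fas KO liver, which was kept through the WT array alone.

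Liver holds several cell types, and fewer cells of a type and less RNA per cell cannot be told apart in it. Leukocyte and Kupffer cell markers, 6 of 6 above the array median on both arrays, summed to 9455 in Fas KO liver and 11013 in WT liver, and endothelial markers, 3 of 3, to 2241 in Fas KO liver and 2799 in WT liver. Of 9 T and B lymphocyte markers on the array 2 were above the median on each, with sums of 466 in Fas KO liver and 457 in WT liver. Stellate cell markers summed to 10278 in Fas KO liver and 10841 in WT liver, with 3 of 3 above the median in Fas KO liver and 2 of 3 in WT liver. Of 3 bile duct markers 1 was above the median on each array. Krt7 was at 76.3 in Fas KO liver and 9.55 in WT liver, Krt19 at 70.6 in Fas KO liver and 24.5 in WT liver, and Epcam at 53.5 in Fas KO liver and 198 in WT liver, and the 3 summed to 200.3 in Fas KO liver and 232 in WT liver. The part of these cells in the ratios of Map3k1 and Dusp10 was not tested.

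**Figure D3:**
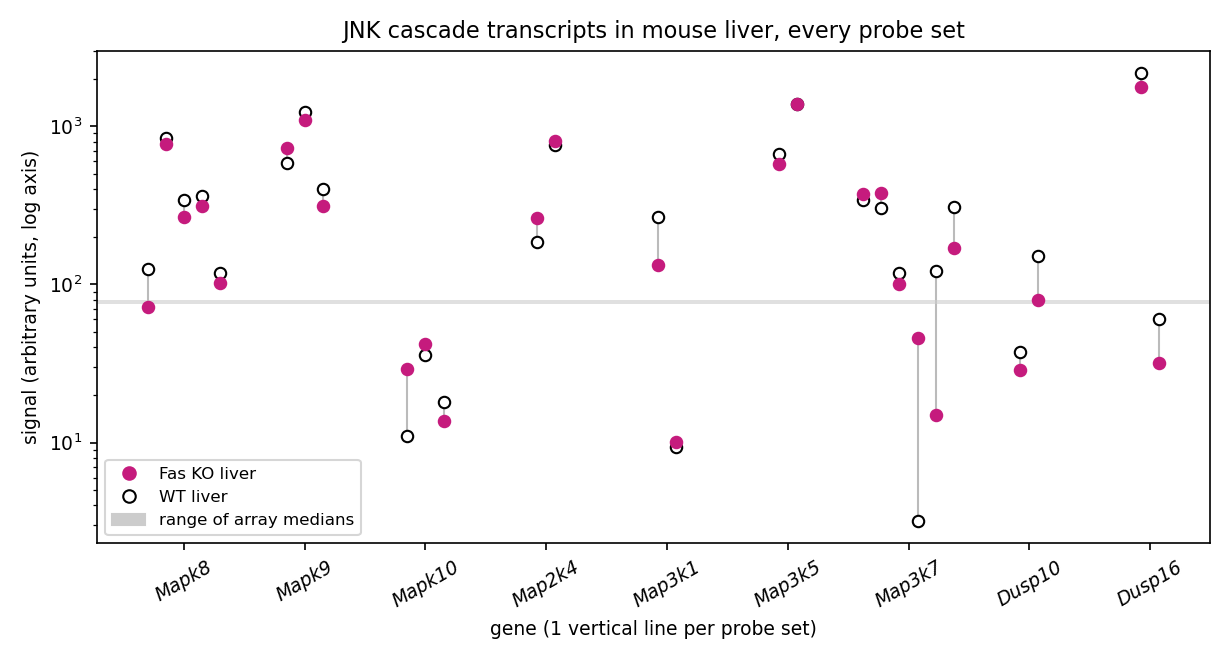
Signal of every mouse probe set of the 9 members on a log axis, with Fas KO liver filled and WT liver open, joined by a line per probe set, and the range of array medians in grey. Map3k1 at 133 in Fas KO liver and 268 in WT liver, and Dusp10 at 79.5 in Fas KO liver and 151 in WT liver, are the wider gaps among most intense sets.

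Between the cell lines MAP3K5 was far lower and DUSP16 far higher in HepG2. In the fit by limma 6 of 9 members passed an adjusted p of 0.05 for HepG2 minus HeyA8, 3 higher and 3 lower in HepG2, beside 58% of the 13936 genes (30% higher, 28% lower). The share of members is thus near that of all genes, and it does not set the cascade apart. The cell lines differ in tissue, donor and culture at once, and these cannot be told apart.

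MAP3K5 had the largest difference. Its signals were 15.6 and 5.12 on the HepG2 arrays, against 1010, 1044 and 1473 on the HeyA8 arrays, so the lines did not overlap. The share of all genes whose lines do not overlap was not counted. The log2 effect was -5.71 ± 0.29 (SE, 5 arrays), adjusted p 1.49e-06 by limma, and the other probe set gave -4.32. Since the HepG2 signals lie below the array medians, the size depends on the constant c. Its transcript was therefore near the floor of the arrays in HepG2 whether or not FAS was knocked down. DUSP16 ran the other way, at 1632 and 1653 on the HepG2 arrays, against 217, 255 and 271 on the HeyA8 arrays. Its effect was 2.65 ± 0.16 (SE, 5 arrays), adjusted p 3.3e-06 by limma, a 6.29-fold difference, and all 4 of its probe sets were higher in HepG2, by 1.77 to 2.65. Both genes are given with the 250 bases before their outermost annotated start, 5′ to 3′ in the direction of the gene, from RefSeq on GRCh38.p14, because they bound the range of the members between the lines. Capitals mark CG dinucleotides. The window of MAP3K5 lies at chr6:136793092-136793341 (minus strand) and that of DUSP16 at chr12:12562864-12563113 (minus strand).
MAP3K5: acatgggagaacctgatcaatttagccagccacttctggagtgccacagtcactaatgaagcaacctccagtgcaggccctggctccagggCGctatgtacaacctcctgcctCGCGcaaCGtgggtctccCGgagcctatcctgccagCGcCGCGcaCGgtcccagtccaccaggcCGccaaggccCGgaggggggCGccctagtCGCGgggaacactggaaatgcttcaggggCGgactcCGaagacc
DUSP16: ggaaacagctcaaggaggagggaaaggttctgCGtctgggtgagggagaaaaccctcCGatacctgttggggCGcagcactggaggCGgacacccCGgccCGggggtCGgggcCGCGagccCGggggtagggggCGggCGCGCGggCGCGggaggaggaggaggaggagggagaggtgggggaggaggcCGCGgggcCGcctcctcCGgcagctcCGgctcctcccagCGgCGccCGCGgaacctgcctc
These windows hold 16 CG dinucleotides before MAP3K5 and 25 before DUSP16, beside a median of 11 in 35116 windows of the same length. A second start of MAP3K5 has 35 in its window. Any link between these counts and the levels of the genes was not tested. RefSeq windows were found for 8 of the 9 members, 14 windows in all. The AP-1 motif TGANTCA, which is its own reverse complement, was in 1 of the 14 (7.14%), a window of MAPK10, beside 6.57% of all windows. The CRE motif TGACGTCA, also its own reverse complement and not overlapping the first, was in 1 of 14 (7.14%), another window of MAPK10, beside 1.65% of all. A match here is a stretch of letters and not a shown binding site.

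MAP3K1 was at 2512 and 2953 on the HepG2 arrays, against 1123, 848 and 960 on the HeyA8 arrays, an effect of 1.46 ± 0.15 (SE, 5 arrays) with an adjusted p of 7.02e-05 by limma. MAP2K4 was at 1022 and 1015 on the HepG2 arrays, against 512, 418 and 606 on the HeyA8 arrays, an effect of 0.95 ± 0.16 (SE) with an adjusted p of 0.00141 by limma. Both kinases were thus higher on each HepG2 array than on each HeyA8 array, which also held for MAPK9. The share of all genes separated in this way was not counted. DUSP10 was at 220 and 183 on the HepG2 arrays, against 590, 316 and 589 on the HeyA8 arrays, an effect of -1.23 ± 0.29 (SE) with an adjusted p of 0.00747 by limma. MAPK8 was at 986 and 924 on the HepG2 arrays, against 1353, 1448 and 1325 on the HeyA8 arrays, an effect of -0.51 ± 0.11 (SE) with an adjusted p of 0.00581 by limma. The JNK phosphatases therefore had opposite signs between the lines, DUSP16 higher and DUSP10 lower in HepG2. MAPK9 (0.13, 95% interval from -0.10 to 0.36), MAPK10 (-0.08, interval from -0.88 to 0.71) and MAP3K7 (-0.46, interval from -1.005 to 0.09) did not pass.

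Leaving out 1 array at a time left between 4 and 7 members past the threshold. MAP3K5, DUSP16 and MAP3K1 passed in each case. MAPK8 was lost without the HeyA8 PLKO array (adjusted p 0.0611), the HepG2 shRNA6 array (0.0796) or the HepG2 PLKO array (0.0524), all by limma. DUSP10 was lost without the HeyA8 PLKO array (0.110) or the HepG2 PLKO array (0.0946), and MAP2K4 without the HepG2 shRNA6 array (0.0651). MAP3K7 passed without the HeyA8 shRNA4 array, at -0.70 with an adjusted p of 0.00123. With the HepG2 arrays cut to 1, that lone array is assumed to vary like the others. Of the other MAP3K7 probe sets, tested with every probe set in the fit, 3 of 3 were lower in HepG2 with adjusted p between 0.0012 and 0.0381. In the same fit MAPK9 had another set higher in HepG2, by 0.53 with an adjusted p of 0.00741, and a set at 0.38 with an adjusted p of 0.0518. Of the 4 other MAPK8 sets 1 passed, at -0.65 with an adjusted p of 0.0149, and 3 did not, at -0.66, -0.55 and -0.13 with adjusted p of 0.0676, 0.445 and 0.757.

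**Figure D4:**
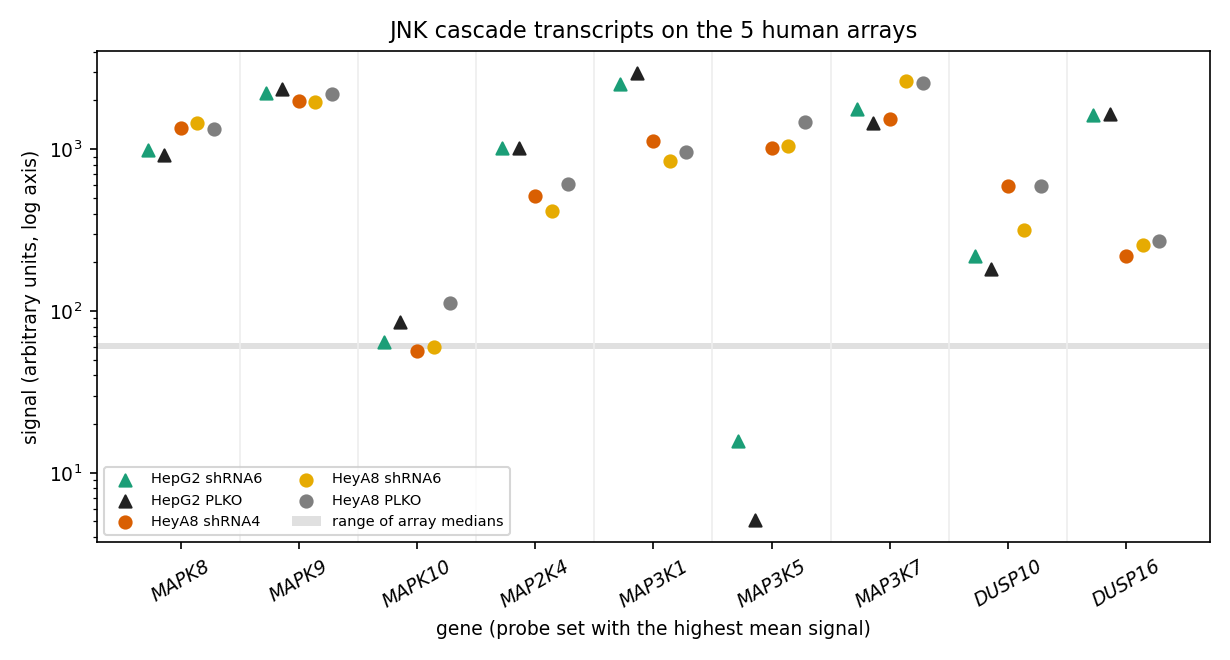
Signal of the 9 members on the 5 human arrays, log axis, for the probe set most intense on average. Triangles are HepG2 and circles HeyA8, and the grey band is the range of array medians. MAP3K5 lies below the band in HepG2 and between 1010 and 1473 in HeyA8, DUSP16 lies higher in HepG2, and MAPK10 lies near the band on all arrays.

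Genes with the pattern most like a member over the 5 human arrays were found by the root mean square difference of log2 values after centring each gene, among 13936 genes, for members that ranged over at least 1 log2 unit. For MAP3K5 they were GULP1 (0.14) and SLC39A8 (0.16), for DUSP16 MGST2 (0.06) and CSF3R (0.07), and for DUSP10 CD163L1 (0.09) and ITGB3 (0.09). For MAP3K1 they were PDK3 (0.06) and COQ7 (0.06), and for MAP2K4 NOTCH4 (0.05) and PIM3 (0.05). GULP1, for example, was at 45.5 and 20.4 on the HepG2 arrays, against 2053, 2578 and 2824 on the HeyA8 arrays. With 5 arrays and 58% of genes differing between the lines, many genes share such patterns.

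The wider pathway, a list of 47 genes of the JNK route outside the cascade, held at most 1 gene past 2-fold in each comparison. The activating MAP3K and MAP4K kinases held the only human genes past 2-fold. MAP4K1, a blood cell kinase, was at 9.23 with shRNA4 in HeyA8 against 61.5 with PLKO, a ratio of -1.77, and MAP3K6, a partner of ASK1, was at 22.4 with shRNA6 in HepG2 against 93.3 with PLKO, a ratio of -1.60. Both are dim, and MAP4K1 was just above its array's median in the control. In all 1 of 34 kept genes was past 2-fold with shRNA4, 0 of 35 with shRNA6 in HeyA8, 1 of 34 in HepG2 and 1 of 40 in mouse liver, beside 4.76%, 4.22%, 5.22% and 4.34% of all kept genes. Medians of these genes were 0.00, -0.02, -0.09 and -0.11, beside 0.03, 0.01, -0.01 and -0.02 for all kept genes. By limma 0 of 35 tested passed for the common knockdown effect, 1 of them, DUSP1, at an unadjusted p below 0.05 (-0.42 ± 0.13, SE, adjusted p 0.991).

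By role, the scaffolds and adaptors, which hold the kinases together, lay between -0.62 and 0.22 with shRNA4 in HeyA8. They ran from -0.44 to 0.41 with shRNA6 there and from -0.72 to 0.23 in HepG2. MAPK8IP2 (JIP2) was the lowest with shRNA4 and in HepG2 and the highest with shRNA6 in HeyA8, so it had no common sign. DUSP1, an immediate-early phosphatase, was below its control in each human comparison, at -0.31, -0.11 and -0.71. ATF2, a transcription factor phosphorylated by JNK, was at 1988 with shRNA4 and 2562 with shRNA6 in HeyA8, against 3465 with PLKO, ratios of -0.80 and -0.43, and at 0.32 in HepG2.

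In mouse liver most substrates and the GADD45 genes were below their WT signals. Bmf, a BH3-only protein that JNK can phosphorylate, was at 207 in Fas KO liver and 628 in WT liver, a ratio of -1.51. Jun was at 1211 in Fas KO liver and 2217 in WT liver, a ratio of -0.86, with the other probe set at -0.88. Gadd45b and Gadd45a, stress-induced proteins that bind MAP3K4 or MKK7, were at 176 and 235 in Fas KO liver, against 343 and 365 in WT liver, ratios of -0.89 and -0.60. Of 8 kept substrates 6 were below 0 (median -0.35), with Elk1 at 0.23 and Itch at 0.0084 above it, and of 3 GADD45 genes 3 (median -0.60), beside a median of all genes of -0.02. The share of all kept mouse genes below 0 was not counted, and the lists were chosen with earlier results of these data known. With 1 liver each none of this was tested.

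Between the cell lines the inhibitors and GADD45 genes had the lowest medians of the lists, -2.06 and -2.37. By limma 25 of 35 genes passed for HepG2 minus HeyA8, 11 higher and 14 lower, beside 58% of all genes tested (30% higher, 28% lower). GSTP1, a glutathione transferase that binds JNK, was at 43.8 and 68.9 on the HepG2 arrays, against 5870, 5922 and 5880 on the HeyA8 arrays, an effect of -6.48. The HepG2 signal of 43.8 lies below its array's median, as do both HepG2 signals of DUSP4, 7.59 and 38.3, so the sizes for GSTP1 and DUSP4 depend on the constant c. DUSP4 was at -3.43, GADD45B at -3.36, JUN at -3.27 and DUSP1 at -2.06, all lower in HepG2, while TAB3, an adaptor of TAK1, was at 1.83 and JUND at 1.48. All 5 inhibitors tested and both GADD45 genes passed, 1 of these 7, DUSP8, being higher in HepG2.

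**Figure D5:**
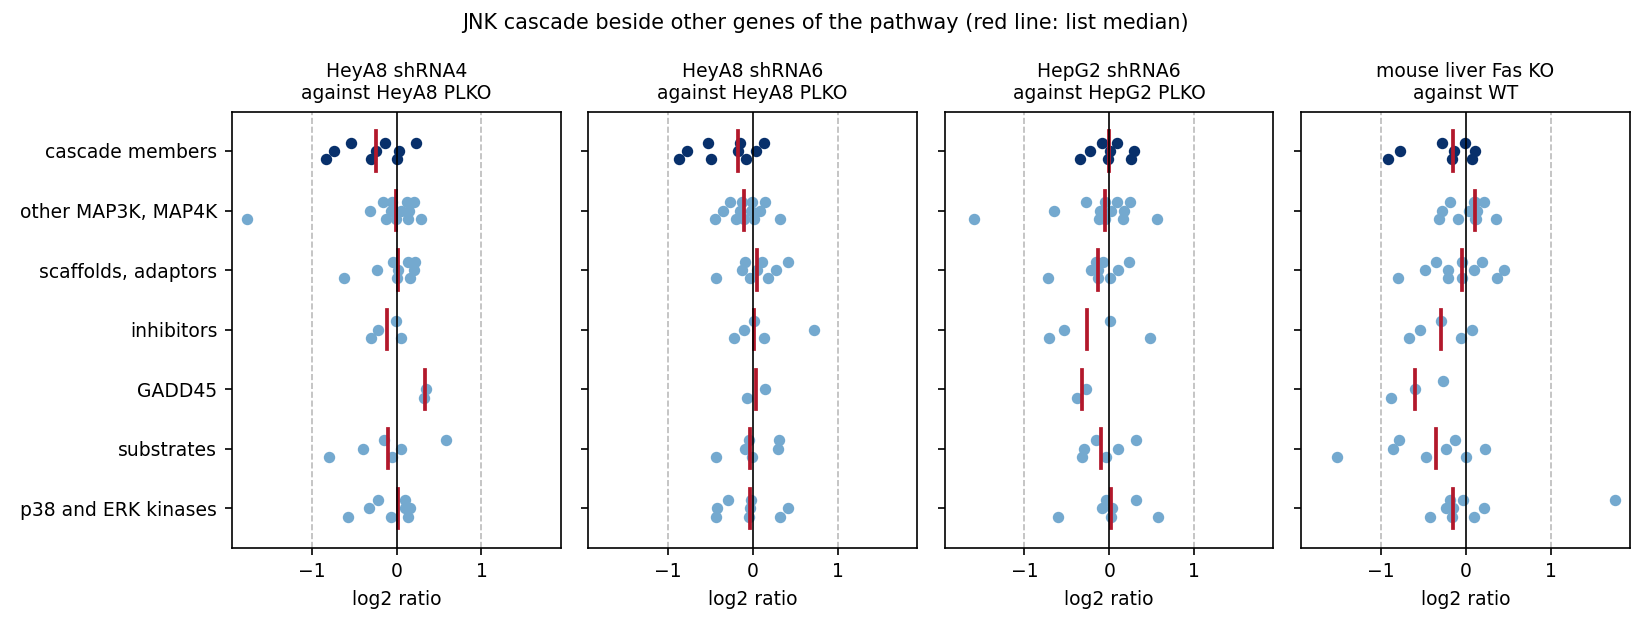
Log2 ratios of kept genes by list in the 4 comparisons, with cascade members in dark blue, other lists in light blue, list medians in red and a 2-fold difference dashed. The kept members, 9 in each HeyA8 panel and 8 in the HepG2 and mouse panels, stay inside the dashed lines, and Bmf at -1.51 is the lowest substrate in mouse liver.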

How the data were processed

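Expression was measured on 5 human and 2 mouse Affymetrix arrays. The deposited values are linear intensities, and MAS5 is the tool that the submitters' processing notes name. Its settings and detection calls were not used here. Control probe sets (62 human, 64 mouse) were left out. Symbols came from the platform annotation, and 41037 human probe sets matched RefSeq by gene identifier, none with a differing symbol. Genes outside that annotation were not analysed here.

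Log2 values with a pseudocount were computed, 1 probe set per gene, using _x_at sets only where there was no other. Fits used limma 3.58.1 in R 4.3.3 with a trended prior variance and Benjamini-Hochberg adjustment over all genes, and were tested on simulated data. Other steps used Python 3.11.15. Named genes were all members, FAS and JUN, at most 4 genes per list and comparison with the largest ratio, and nearest genes as described. List genes given for the cell lines, such as GSTP1 and TAB3, were chosen after their values were seen, as were GADD45B and DUSP4 there. Members and lists were chosen with earlier results of these data known. Alternatives covered pseudocount, scaling, filter, probe set rule, threshold, variance trend, cell line term and left-out arrays.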

Additional observations from a re-analysis of the deposited data

How the results depend on the processing

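No paired analysis was possible because the labels give the groups, each of 1 array, no shared replicate numbers. Counts of members past 2-fold stayed at 0 in every comparison under the alternatives of pseudocount, scaling, filter and probe set, except that with a pseudocount of 1 there was 1 in mouse liver (Map3k1). At 1.5-fold they were 2 with shRNA4 and 2 with shRNA6 in HeyA8 and 2 in mouse liver, and 0 in HepG2. The mean of probe sets moved MAPK10 to -0.24 with shRNA4, 0.029 with shRNA6 and 0.22 in HepG2, MAP3K1 to 0.94 with shRNA4, MAPK8 to 0.65 in HepG2 and Map3k1 to -0.44 in mouse liver. Medians of the members ranged from -0.24 to -0.14 with shRNA4, -0.18 to -0.10 with shRNA6, -0.12 to 0.02 in HepG2 and -0.24 to -0.06 in mouse liver.

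For other pathway genes, in alternatives chosen after seeing the data, counts past 2-fold with shRNA4 were 0 with the pseudocount at the table median or the 75th percentile filter and 2 with no filter. In HepG2 they were 0 under either of these or the mean of probe sets and 4 with no filter, and with shRNA6 in HeyA8 2 with no filter. At 1.5-fold they were 3 with shRNA4 and 1 with shRNA6 in HeyA8, 4 in HepG2 and 7 in Fas KO liver. Over all genes, in alternatives also added later, counts past 2-fold ran from 56 to 2134 with shRNA4 (579 in the report), 30 to 1929 with shRNA6 (513), 69 to 2255 in HepG2 (635) and 44 to 1555 in mouse liver (523), lowest with the stricter filter and highest with none.

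For the common knockdown effect 0 members passed under every alternative, and 0 with each array left out. Scaling to equal medians let 2 genes pass, neither a member. Of uncalled effects, MAP3K5 turned to 0.32 with a pseudocount of 1, 0.24 with the mean of probe sets, 0.95 with no cell line term and, with arrays left out, ran from -0.51 to 0.67. The mean of probe sets turned MAPK10 to 0.035 and MAP3K1 to 0.10, and no cell line term turned DUSP10 to 0.065. With arrays left out, DUSP10 ran from -0.43 to 0.25, MAP3K7 from -0.36 to 0.29, MAP2K4 from -0.38 to 0.0096 and MAP3K1 from -0.23 to 0.024. For the difference between the lines' knockdown effects, equal medians turned MAPK8 to -0.15 and MAPK9 to -0.10, and the mean of probe sets turned MAPK9 to -0.050. For HepG2 minus HeyA8 between 4 and 7 members passed with 1 array left out. The mean of probe sets turned MAPK10 to 0.15, lost MAPK8 (-0.50) and added MAPK9 (0.35) and MAP3K7 (-0.74). With arrays left out MAPK10 ran from -0.35 to 0.11. No variance trend lost DUSP10 (adjusted p 0.0528 by limma). MAP3K5 ran from -6.79 to -4.15 and DUSP16 from 2.27 to 2.73 over all alternatives, both called in each. Testing every probe set called 14615 of them (8079 genes in the report), from a larger table. The cause of the other changes was not tested.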

Other observations

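The p38 and ERK kinases, the sister MAPK routes, were set beside the cascade. By limma 5 of 8 tested genes passed for HepG2 minus HeyA8, a share near the 58% of all genes tested that passed. MAP2K6, an activator of p38, was higher in HepG2 by 3.77 on the log2 scale and MAPK13, a p38 kinase, by 1.11, while MAPK11, another p38 kinase, was at -3.00, a size that depends on the constant c because its HepG2 signals of 8.21 and 14.28 lie below the array medians. MAP2K1 and MAP2K2, the activators of ERK, were at -0.36 and -0.29. For the common knockdown effect 0 of 8 passed, with MAPK3 (ERK1) at -0.41 ± 0.18 (SE, 5 arrays), adjusted p 0.991 by limma. In mouse liver Mapk11 was at 94.9 in Fas KO liver and 13.6 in WT liver, a ratio of 1.76 that was kept through the Fas KO array alone. These genes were named after their values were seen.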
